A study of Homo sapiens with 6 samples.

Results

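The genes described here encode the subunits of respiratory complexes II, III, IV and V and the electron carrier cytochrome c. They were chosen by symbol among protein-coding genes: SDHA to SDHD, the UQCR genes and CYC1, the COX4 to COX8 genes, the ATP5F1, ATP5M and ATP5P genes, CYCS, and the mitochondrially encoded MT-CYB, MT-CO1, MT-CO2, MT-CO3, MT-ATP6 and MT-ATP8. The rule found 55 genes of the 62754 in the deposited table, 49 encoded in the nucleus and 6 in mitochondrial DNA. Complex II had 4 of them, complex III 11, complex IV 19, complex V 20, and cytochrome c 1. The symbol rule itself used no measured value, although the genes were chosen with earlier results of these data known.

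The RNA came from HEK293, a line of adherent cells from human embryonic kidney, which some of the sample labels name as its derivative HEK293T. The 3 control libraries (control 1 to 3) and the 3 FAM60A knockout libraries (knockout 1 to 3) were poly(A)-selected, and both groups grew in DMEM with serum. The knockout cells formed a pool, not a clone, that was selected with puromycin after it had been transfected with a Cas9 vector carrying guide RNAs against FAM60A, a subunit of the Sin3/HDAC repressor complex. The labels call the other group "Control" and do not say whether it received a vector or puromycin.

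Electrons from succinate enter the respiratory chain through complex II and reach complex III by way of coenzyme Q. Cytochrome c carries them from complex III to complex IV, which reduces oxygen, and complex V, the ATP synthase, uses the resulting proton gradient to make ATP. Complex II is built from nuclear-encoded proteins alone, whereas complexes III, IV and V each combine nuclear-encoded proteins with core subunits translated inside the mitochondrion.

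The libraries held between 88361827 and 93346824 counts. Levels are given as CPM, which are counts per 1000000 of a library size that edgeR's TMM normalization had adjusted, with mean ± SD over 3 libraries per group, and differences as log2 fold changes of knockout over control. A gene was called when the Benjamini-Hochberg adjusted p of edgeR's quasi-likelihood test over 20992 genes was at most 0.05. FAM60A, listed as SINHCAF, measured 113, 106 and 132 CPM in control 1, 2 and 3 and 67.5, 66.0 and 61.7 CPM in knockout 1, 2 and 3 (log2 fold change -0.85, edgeR adjusted p = 0.00863). Control 3 stood apart from the other controls. For 59.0% of the tested genes it lay nearer to the knockout mean than to the mean of control 1 and 2. Its value is therefore shown separately wherever each library is listed, while control means ± SD include it. Chi-square per degree of freedom over genes was 382 and 394 between control 3 and the other controls and 233 to 291 between control 3 and the knockouts. For comparison, the value was 24.6 between control 1 and 2 and 14.9 to 29.1 among the knockouts. Between control 1 or 2 and the knockouts the values were 395 to 481. Control 3 was thus far from both groups. Whether control 3 is a mislabelled or mixed library was not tested. Its FAM60A level was the highest of the 6 libraries, and every control mean and log2 fold change that includes it rests on its label. All 5 markers of HEK293 cells were detected, with a summed level of 125 to 236 CPM in controls and 146 to 171 CPM in knockouts, and LHX1 among them fell from 9.96 ± 5.17 to 2.64 ± 0.0656 CPM (n = 3 each, edgeR adjusted p = 0.0353). Of 7 markers of blood, liver, striated muscle and testis, PRM1 and TNP1 had no counts, and the 7 together reached 0.593 to 1.01 CPM in controls and 0.510 to 0.615 CPM in knockouts. The part of these markers in the results below was not tested.

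All 6 mitochondrially encoded subunits rose in the knockout with TMM scaling, 5 of them by a log2 fold change of at least 1, whereas quantile normalization, which sets MT-CO1 as the top gene of every library to 1 value, gave -0.062 for MT-CO3 and called the other 4. Of all genes tested, 16.6% were called, 7.96% as higher, and 3.34% were higher with a log2 fold change of at least 1 (7.06% moved that far in either direction). The median log2 fold change of the 6 genes was 1.22, against -0.01 for all genes tested. For all 6, every knockout library lay above every control library, a pattern that 21.5% of the tested genes had. In a bulk sample, fewer cells of a kind and less RNA per cell cannot be told apart.

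MT-CYB, cytochrome b, is the core subunit of complex III that passes electrons between the quinone sites. It lies in mitochondrial DNA from position 14747 to 15887. Its level was 3053, 2738 and 2961 CPM in control 1, 2 and 3 and 6284, 6344 and 6847 CPM in knockout 1, 2 and 3. Control 3 lay between the other controls, and the lowest knockout library was well above the highest control. This is a log2 fold change of 1.15 with a standard error of 0.10 (edgeR adjusted p = 0.00370).

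MT-CO1, MT-CO2 and MT-CO3 form the catalytic core of complex IV, the first carrying the heme and copper centre where oxygen is reduced and the second receiving electrons from cytochrome c. MT-CO1 measured 9121, 9183 and 12259 CPM in the controls and 23949, 22371 and 25859 CPM in the knockouts. It was the gene with the most counts in every library, and on the log2 scale it was higher by 1.24 (standard error 0.16, edgeR adjusted p = 0.00849). For MT-CO2 the values were 4446, 3669 and 4961 CPM in the controls and 10284, 9525 and 10077 CPM in the knockouts (log2 fold change 1.19, standard error 0.14, edgeR adjusted p = 0.00669). For both genes control 3 was the highest control and still well under each knockout library. MT-CO3 changed less: 4992, 5500.5 and 5711 CPM in the controls became 8206, 7465 and 8795 CPM, which is 0.59 in log2 units (standard error 0.12, edgeR adjusted p = 0.0230). The 3 genes had similar levels per kilobase in the controls, and MT-CO3 was the lowest of them in the knockouts. Per kilobase of their transcripts, the control levels were 6607, 6372 and 6889 CPM per kb for MT-CO1, MT-CO2 and MT-CO3, and the knockout levels were 15603, 14564 and 10402 CPM per kb.

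MT-ATP8 and MT-ATP6 are membrane subunits of complex V, and MT-ATP6 forms part of the path that protons take through the membrane. Both are read from one RNA, and their reading frames overlap. The 46 shared bases are printed because reads from them belong to either gene. The first capitals mark the start codon of MT-ATP6 and the last the stop codon of MT-ATP8 (GENCODE v44 transcripts, mitochondrial DNA, plus strand).
MT-ATP8/MT-ATP6: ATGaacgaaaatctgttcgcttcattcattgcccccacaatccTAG
MT-ATP6 measured 3557, 2261 and 3362 CPM in the controls and 7479, 7912 and 7890.1 CPM in the knockouts (log2 fold change 1.34, standard error 0.19, edgeR adjusted p = 0.00995). MT-ATP8 measured 515, 197 and 262 CPM in the controls and 1362, 1114 and 1446 CPM in the knockouts. Its change of 2.01 in log2 units (standard error 0.36, edgeR adjusted p = 0.0187) was the largest of the 49 subunit genes tested, and its controls also varied the most of the 6 relative to their mean, at 324 ± 168 CPM. The 46 shared bases make up a larger portion of MT-ATP8, 207 bases long, than of MT-ATP6, 681 bases long. Nuclear pseudogene copies held 6.78% as many counts as MT-ATP6, and with them added its log2 fold change was 1.31.

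**Figure D1:**
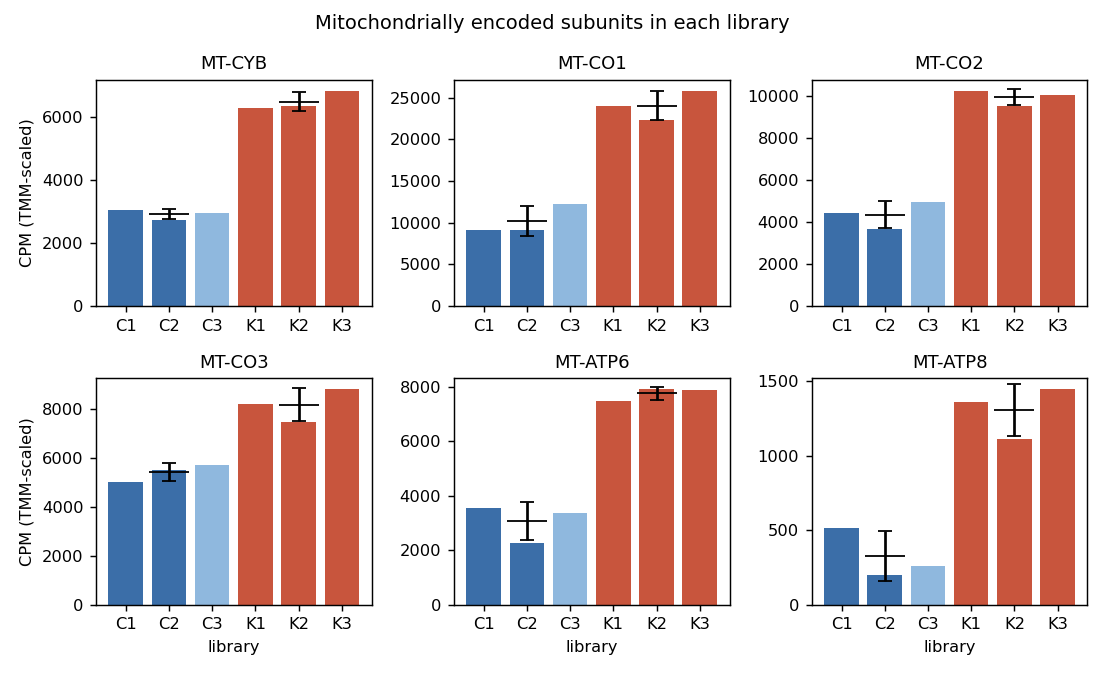
Level of the 6 mitochondrially encoded subunits in each library, in TMM-scaled CPM on axes that start at 0, with C1 to C3 for control and K1 to K3 for knockout (control 3 in light blue). Horizontal lines with error bars, drawn over the middle bar, give the mean ± SD of each group (n = 3), and in each panel the 3 knockout bars stand above the 3 control bars (with quantile normalization MT-CO3 was at -0.062 on the log2 scale).

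The calls of the mitochondrial subunits depended on which libraries were kept. Without control 1, 2 or 3, edgeR called 5, 4 and 6 of the 6. Without knockout 1, 2 or 3 it called 1, 3 and 1, in fits that called 0.763%, 2.31% and 0.870% of all genes, while all 6 kept an unadjusted p under 0.05 in each. MT-CYB was the gene called in all 6 of these fits, and its log2 fold change ranged from 1.11 to 1.19 across them.

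The remaining genes of mitochondrial DNA give the setting for these values. Of the 7 mitochondrially encoded complex I subunits, 4 were called higher, with log2 fold changes of the 7 between 0.46 (MT-ND3, not called) and 2.08 (MT-ND6) and a median of 0.99. The ribosomal RNA MT-RNR2 had a log2 fold change of 1.03 (edgeR adjusted p = 0.00987). MT-RNR1, the other ribosomal RNA, was not called (log2 fold change 1.34, edgeR adjusted p = 0.0870), and its control 3, at 1370 CPM, lay toward the knockouts and away from the 475 and 457 CPM of control 1 and 2. All 37 genes of mitochondrial DNA together took 4.63%, 3.97% and 5.57% of all control counts and 9.15%, 8.70% and 10.1% of all knockout counts. The 6 subunits alone took 2.69%, 2.43% and 3.05% in control 1, 2 and 3 and 5.49%, 5.26% and 5.93% in knockout 1, 2 and 3, a mean ratio of 2.04 between the groups. Control 3 was the highest control in both sums and lay below every knockout library in both.

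The nuclear-encoded subunits did not move as one group. Of 49 genes, 43 had enough counts to be tested, and 10 were called higher, 1 lower and 32 not at all, where 7.96% and 8.67% of all genes tested were called higher and lower. Their median log2 fold change was 0.32, with 33 fitted above and 10 below 0. The groups did not overlap for 19 genes that were higher and 3 that were lower in the knockout, where 21.5% and 20.1% of all genes tested had these patterns. Together the nuclear subunits took 0.831%, 0.924% and 0.933% of control counts and, for the knockouts, 1.07%, 1.03% and 1.05%, a mean ratio of 1.17. The mitochondrial subunits of complexes II to V thus held 3.24, 2.63 and 3.27 counts per nuclear subunit count in control 1, 2 and 3 and 5.11, 5.11 and 5.67 in knockout 1, 2 and 3.

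The 10 nuclear genes called higher fell into 3 of the complexes, and 7.96% of all genes were called higher. CYC1, UQCRB and COX6C among them lie on chromosome 8, starting at 144095076, 96222947 and 99877865 in GRCh38, and no other subunit gene does. Whether this location has a part in their calls was not tested. Complex II had 1 of 4 tested, complex III 5 of 10, complex IV 4 of 11 and complex V 0 of 17, where 1 of 17 had an unadjusted p under 0.05 in the higher direction and DESeq2 called 0 as higher. The median log2 fold changes were 0.36, 0.66, 0.51 and 0.10 in the same order. Both the count and the median of complex III include UQCRH and its near-identical copy UQCRHL, which share reads that cannot be assigned to one gene. Without control 3, a fit that called 65.6% of all genes, complex II had 3 calls higher and 0 lower, complex III 7 and 1, complex IV 6 and 1, and complex V 5 and 5. The difference between complexes was not tested.

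**Figure D2:**
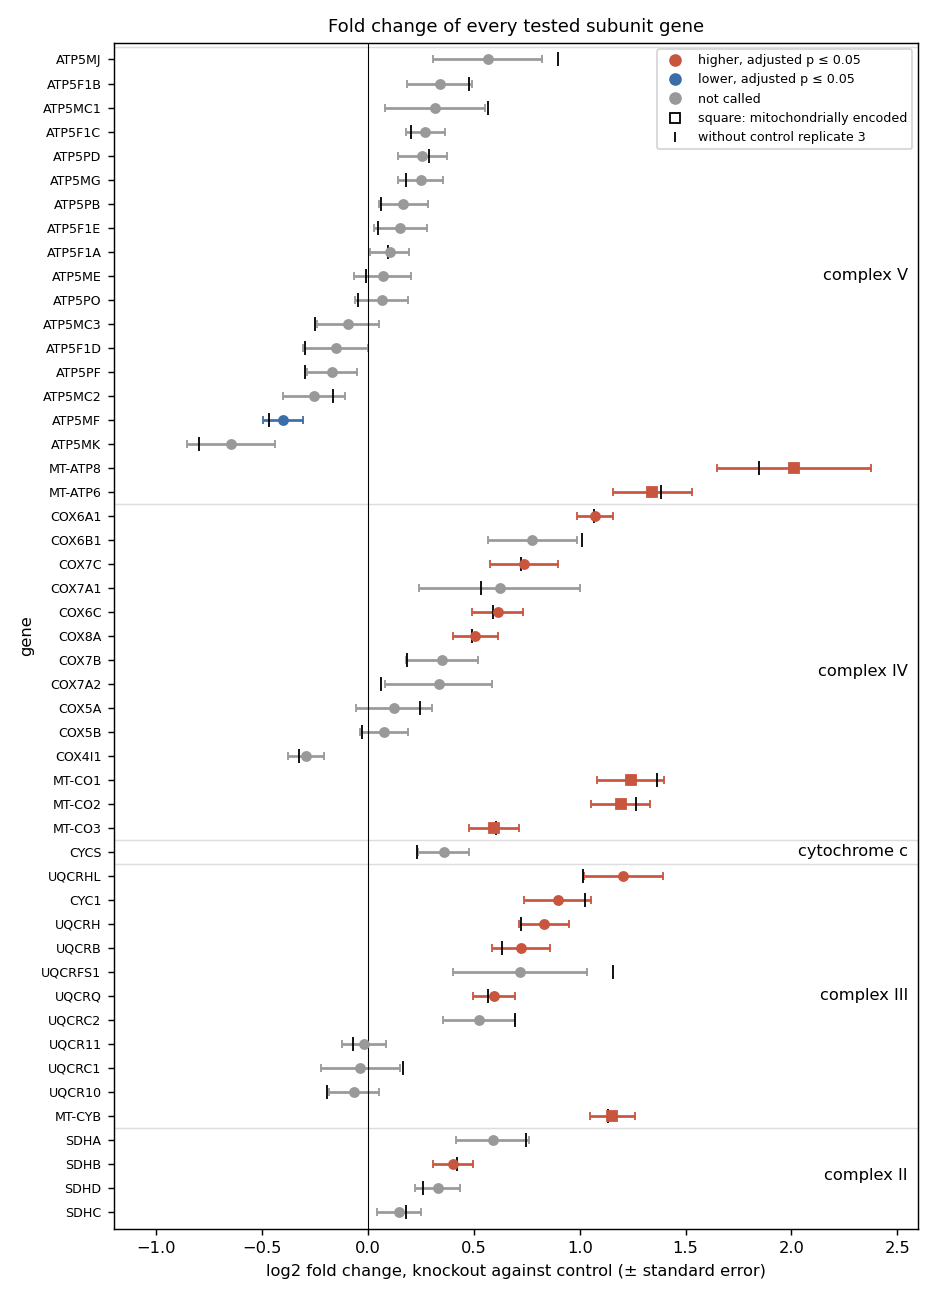
Log2 fold change of knockout over control for the 49 subunit genes tested, by complex, with the standard error of edgeR's fit (x axis, log2). Squares are mitochondrially encoded genes, red and blue mark genes called higher and lower, and the black tick gives the value without control 3; the mitochondrial squares lie between 0.59 and 2.01 (quantile normalization gave -0.062 for MT-CO3), and the complex V circles between -0.65 and 0.56.

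Complex II oxidizes succinate to fumarate and feeds the electrons to coenzyme Q. SDHB, its iron-sulfur subunit, was the one gene of the complex that passed the test. It measured 118, 122 and 134 CPM in the controls and 166, 174 and 154 CPM in the knockouts (log2 fold change 0.40, standard error 0.09, edgeR adjusted p = 0.0359). SDHA, the flavoprotein that binds succinate, measured 24.0, 26.9 and 36.0 CPM in the controls and 40.7, 48.4 and 41.7 CPM in the knockouts (log2 fold change 0.59, edgeR adjusted p = 0.0639). SDHC and SDHD anchor the complex in the membrane. SDHC ranged from 83.8 to 103 CPM in the controls and from 101 to 108 CPM in the knockouts, with control 3 the highest control and inside the knockout range (log2 fold change 0.15, edgeR adjusted p = 0.358). SDHD measured 52.5, 59.8 and 51.7 CPM in the controls and 75.0, 67.2 and 63.6 CPM in the knockouts (log2 fold change 0.33, edgeR adjusted p = 0.0845). The SDHB call was kept in 1 of the 6 fits that left out a library, the fit without control 3, and its log2 fold change lay between 0.34 and 0.45 in them. Counts of pseudogene copies came to 6.78% of those of SDHA and 6.86% of those of SDHC. SDHA shares 1887 of its 8703 exonic bases with another protein-coding gene on its strand, and SDHD shares 319 exonic bases with a read-through gene on its strand.

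In complex III the called genes were the electron-carrying CYC1, the small subunits UQCRB, UQCRQ and UQCRH around the core, and UQCRHL, a near-identical copy of UQCRH. CYC1, cytochrome c1, passes electrons to cytochrome c. It measured 149, 186 and 226 CPM in the controls and 345, 356 and 344 CPM in the knockouts (log2 fold change 0.90, standard error 0.16, edgeR adjusted p = 0.0171). The controls of CYC1 were spread over a wide range, with control 3 the highest, and the knockouts were close together. UQCRB, which lies near the quinone-binding site, measured 195, 213 and 179 CPM in the controls and 343, 269.8 and 354 CPM in the knockouts (log2 fold change 0.72, standard error 0.14, edgeR adjusted p = 0.0206). UQCRQ, another small subunit of the membrane part, measured 182, 214 and 199.5 CPM in the controls and 317, 287 and 294 CPM in the knockouts (log2 fold change 0.59, standard error 0.10, edgeR adjusted p = 0.0154).

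UQCRH, the hinge protein next to cytochrome c1, measured 312, 357 and 282 CPM in the controls and 594, 542 and 555 CPM in the knockouts (log2 fold change 0.83, standard error 0.12, edgeR adjusted p = 0.0100). It lies on chromosome 1 from 46303698 to 46316776 in GRCh38, and its near-identical copy UQCRHL lies on the same chromosome from 15807374 to 15807649. UQCRHL measured 7.42, 7.28 and 5.03 CPM in the controls and 15.6, 14.7 and 15.2 CPM in the knockouts (log2 fold change 1.21, standard error 0.19, edgeR adjusted p = 0.0124). For both genes control 3 was the lowest library of all. The coding sequences differ at 4 of 276 bases, and the longest stretch without a difference is 157 bases, so part of the reads cannot be assigned to one gene and the split between them is uncertain. Bases 143 to 248 of the coding sequence, which hold all 4 differences, are shown with the differing bases in capitals (GENCODE v44).
UQCRH: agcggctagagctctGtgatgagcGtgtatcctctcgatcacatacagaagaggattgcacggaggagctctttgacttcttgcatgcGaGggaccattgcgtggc
UQCRHL: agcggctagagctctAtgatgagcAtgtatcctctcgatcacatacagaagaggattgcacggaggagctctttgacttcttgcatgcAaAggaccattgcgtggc
UQCRHL took 2.32%, 2.00% and 1.75% of the summed counts of the pair in the controls and 2.56%, 2.64% and 2.66% in the knockouts. With the counts of all copies added to UQCRH, its log2 fold change was 0.84.

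The nuclear-encoded core and iron-sulfur proteins of complex III did not pass the test, and control 3 was unlike the other controls for each. They are named after their values were seen. UQCRFS1, the Rieske iron-sulfur protein, measured 137 and 157 CPM in control 1 and 2, 318 CPM in control 3, and 342, 347 and 316 CPM in the knockouts. Control 3 thus lay among the knockouts (log2 fold change 0.72, edgeR adjusted p = 0.166), and without it the log2 fold change was 1.16. UQCRC2, a core protein of the matrix side, measured 204, 216 and 303 CPM in the controls and 366, 355 and 318 CPM in the knockouts (log2 fold change 0.53, edgeR adjusted p = 0.0824, and 0.69 without control 3). UQCRC1, the other core protein, measured 203, 223 and 324 CPM in the controls and 243, 259.6 and 228 CPM in the knockouts, with control 3 above every other library (log2 fold change -0.04, and 0.16 without control 3). UQCR10 and UQCR11, small membrane subunits, had log2 fold changes of -0.07 and -0.02. Of the 5 called nuclear genes of complex III, UQCRH and UQCRHL were called in the 3 fits that left out a control and in none that left out a knockout library. CYC1 was kept without control 1 and without control 3, UQCRQ without control 2 and without control 3, and UQCRB without control 3 and without knockout 2. Their log2 fold changes stayed between 0.50 (UQCRQ) and 1.28 (UQCRHL) in the 6 fits. The counts of UQCRFS1 pseudogenes came to 9.73% of those of the gene, and UQCRQ shares 255 exonic bases with GDF9 on the opposite strand.

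CYCS, cytochrome c itself, measured 425, 454 and 354 CPM in the controls and 551, 495 and 533 CPM in the knockouts. Every knockout library exceeded every control, and the test was not passed (log2 fold change 0.36, standard error 0.12, edgeR adjusted p = 0.0909, and 0.23 without control 3, the lowest library).

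**Figure D3:**
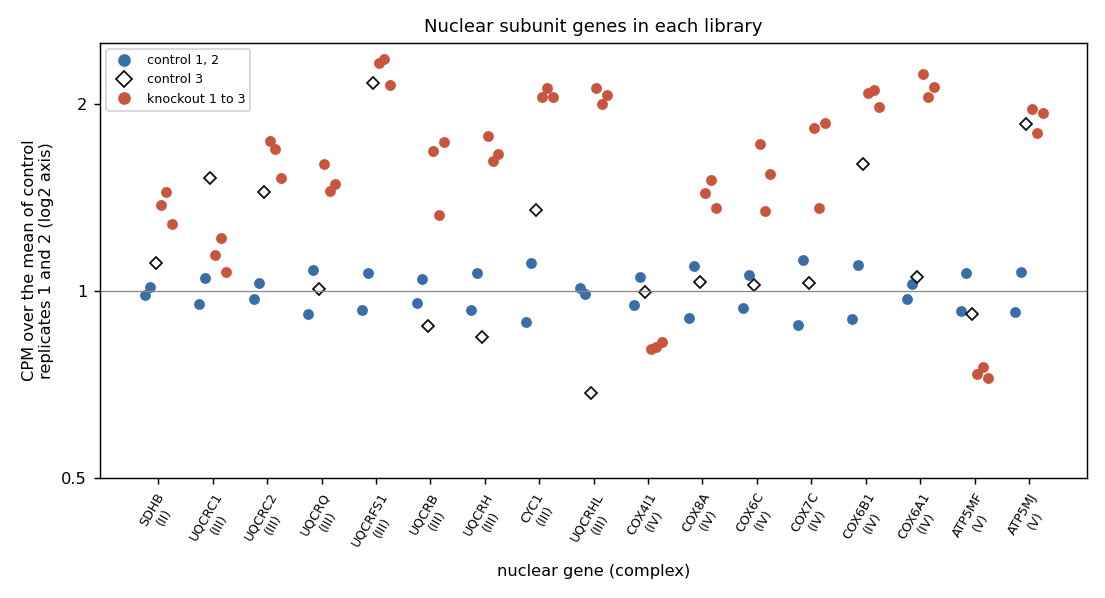
CPM of nuclear subunit genes in each library, divided by the mean of control 1 and 2 (log2 axis), with control 3 as an open diamond and the complex in brackets. The plot holds the 11 called nuclear genes and 6 that were not called (UQCRC1, UQCRC2, UQCRFS1, COX4I1, COX6B1 and ATP5MJ); for COX6A1, COX8A and UQCRQ control 3 sits with the other controls, and for UQCRFS1 and ATP5MJ with the knockouts.

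In complex IV, whose nuclear subunits surround the catalytic core, 4 of the 11 tested were called higher. Of the 11, 10 were fitted above 0. COX6A1, a regulatory subunit of the membrane part, had the lowest adjusted p of all nuclear subunits. It measured 122, 129 and 132 CPM in the controls and 281, 258 and 267 CPM in the knockouts (log2 fold change 1.07, standard error 0.09, edgeR adjusted p = 0.00277). Neither group varied much, and the gap between them was many times the spread within either. COX6A1 was called in all 6 fits that left out a library, with log2 fold changes from 1.01 to 1.11.

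COX6A1 lies on chromosome 12 from 120438113 to 120440730 in GRCh38. Its counts have to be read with those of COX6A1P2, a processed pseudogene on chromosome 6, which over 330 bases differs from the coding sequence of COX6A1 at 4. COX6A1P2 had 88.3, 104 and 105 CPM in the controls and 212, 211 and 195 CPM in the knockouts (log2 fold change 1.06, edgeR adjusted p = 0.00458). The counts of the pseudogene copies came to 76.8% of those of COX6A1, and with them added the log2 fold change was 1.07. Bases 1 to 135, which hold the 4 differences, are shown with the differing bases in capitals, because the longest identical run of 210 bases follows them (GENCODE v44).
COX6A1: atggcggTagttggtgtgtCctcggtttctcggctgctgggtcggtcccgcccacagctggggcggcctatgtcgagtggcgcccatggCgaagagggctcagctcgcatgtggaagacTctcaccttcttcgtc
COX6A1P2: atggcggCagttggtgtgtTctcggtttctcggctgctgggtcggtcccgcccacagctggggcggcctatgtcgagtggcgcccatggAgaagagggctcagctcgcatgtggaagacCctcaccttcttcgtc
How the reads were split between the gene and the pseudogene is uncertain. COX6A1 also shares 175 exonic bases with a read-through gene on its strand.

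COX6C, COX7C and COX8A are further small membrane subunits of complex IV. COX6C measured 136, 153 and 148 CPM in the controls and 249.995, 195 and 223 CPM in the knockouts (log2 fold change 0.61, standard error 0.12, edgeR adjusted p = 0.0220). COX7C measured 308, 391 and 360.4 CPM in the controls and 640.1, 475 and 651 CPM in the knockouts (log2 fold change 0.74, standard error 0.16, edgeR adjusted p = 0.0298). Knockout 2 was the lowest knockout library for both genes. COX8A measured 86.9, 105 and 99.4 CPM in the controls and 139, 145 and 131 CPM in the knockouts (log2 fold change 0.51, standard error 0.10, edgeR adjusted p = 0.0258). For all 3, control 3 fell between the other controls, and the call was kept in 1 of the 6 fits that left out a library, the fit without control 3. Their log2 fold changes in these fits lay between 0.40 (COX8A) and 0.88 (COX7C). COX8A shares 175 of its 494 exonic bases with a non-coding RNA annotated on its strand.

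Several complex IV subunits exist as a widely expressed gene and a partner known from muscle, lung or testis, and in these cells the former held nearly all counts. COX4I1, against lung-type COX4I2, measured 372, 413 and 392 CPM in the controls and 317, 319 and 325 CPM in the knockouts. All 3 knockout libraries were below the controls, and the test was not passed (log2 fold change -0.29, standard error 0.09, edgeR adjusted p = 0.0633). COX4I2 had 0 counts in all libraries, beside 113727 counts of COX4I1 in the controls and 83359 in the knockouts, which allows COX4I2 a share of up to 0.00264% and 0.00360%. COX6A2, the muscle partner of COX6A1, also had 0 counts, which allows up to 0.00809% and 0.00429%. These limits cover counting error only. COX7A1, the muscle partner of COX7A2, made up 0.0295% ± 0.0114 of the pair in controls and 0.0330% ± 0.00845 in knockouts (SD, n = 3 each, two-sided exact permutation test, p = 0.6, where 0.1 is the smallest that 3 against 3 libraries allow). COX7A2 itself measured 356, 424 and 209 CPM in the controls and 432, 374 and 439.9 CPM in the knockouts, with control 3 the lowest library. COX6B2, COX7B2 and COX8C, known from testis, had at most 0.104, 0.0103 and 0.0828 CPM in any library and were not tested.

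The widely expressed partners differed among themselves. COX6B1, on the side of the intermembrane space, measured 139, 170.3 and 248 CPM in the controls and 323, 326 and 306 CPM in the knockouts (log2 fold change 0.78, standard error 0.21, edgeR adjusted p = 0.0524). Control 3 lay between the other controls and the knockouts, and without it the log2 fold change was 1.01. COX5A measured 156, 193 and 234 CPM in the controls and 217, 237 and 181 CPM in the knockouts, and COX5B 200.1, 219 and 178 CPM and 225, 196 and 209 CPM. For these 2 subunits of the matrix side the groups overlapped, with log2 fold changes of 0.12 and 0.08. COX7B measured 184, 222 and 148 CPM in the controls and 239, 207 and 261 CPM in the knockouts (log2 fold change 0.35, edgeR adjusted p = 0.198).

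In complex V, 16 of the 17 nuclear subunits tested were not called, and the 1 call was a decrease. Without control 3, edgeR called 5 higher (ATP5F1B, ATP5F1C, ATP5MC1, ATP5MJ and ATP5PD) and 5 lower (ATP5F1D, ATP5MC3, ATP5MF, ATP5MK and ATP5PF). That fit called 32.4% of all genes as higher and 33.2% as lower. ATP5MF, a small subunit of the membrane part, measured 84.7, 97.7 and 83.9 CPM in the controls and 66.9, 68.8 and 66.0 CPM in the knockouts (log2 fold change -0.40, standard error 0.09, edgeR adjusted p = 0.0365), and 8.67% of all genes tested were called lower. The knockouts were close together and below every control. The call was kept in 1 of the 6 fits that left out a library, the fit without control 3, with log2 fold changes of -0.47 to -0.33 in them, and ATP5MF shares 166 exonic bases with a read-through gene. ATP5MK, another small membrane subunit, had the most negative fitted value of the complex: 30.4, 43.0 and 27.8 CPM in the controls against 25.2, 17.9 and 21.4 CPM in the knockouts (log2 fold change -0.65, standard error 0.21, edgeR adjusted p = 0.0813).

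The ATP5F1 proteins form the catalytic head of the enzyme and the central stalk that rotates inside it. ATP5F1B, the catalytic beta subunit, measured 931, 1025 and 1341 CPM in the controls and 1369, 1448 and 1350.5 CPM in the knockouts. Control 3 lay just below the lowest knockout library, and the log2 fold change was 0.34 with it (edgeR adjusted p = 0.173) and 0.48 without it. ATP5F1A, the alpha subunit, stood at 839 ± 34.6 CPM in controls and 899.9 ± 43.6 CPM in knockouts (n = 3 each, log2 fold change 0.10). ATP5F1C, ATP5F1D and ATP5F1E, the central stalk, had log2 fold changes of 0.27, -0.15 and 0.15 (0.20, -0.30 and 0.045 without control 3). The peripheral stalk genes ATP5PB, ATP5PD, ATP5PF and ATP5PO lay between -0.17 and 0.26, and of these 9 genes edgeR and DESeq2 called 0, while ATP5F1C had an unadjusted p under 0.05. Pseudogene counts came to 5.76% of those of ATP5F1C and 14.9% of those of ATP5PD.

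ATP5MC1, ATP5MC2 and ATP5MC3 encode an identical mature protein, the subunit of the membrane ring that protons turn, from different precursors. ATP5MC1 measured 80.9, 113 and 159 CPM in the controls and 153, 146 and 141 CPM in the knockouts. ATP5MC2 measured 197, 246 and 282 CPM in the controls and 209, 211 and 187 CPM in the knockouts. ATP5MC3 measured 293, 346 and 239.7 CPM in the controls and 274, 289 and 261 CPM in the knockouts. None was called (log2 fold changes 0.32, -0.26 and -0.09, edgeR adjusted p = 0.381, 0.261 and 0.688), and control 3 was the highest library for ATP5MC1 and ATP5MC2 and the lowest for ATP5MC3. On a scale of counts per kilobase, ATP5MC2 took 56.4% ± 0.546 of the 3 genes in controls and 49.0% ± 0.820 in knockouts (SD, n = 3 each), and this share did not overlap between the groups. ATP5MC1 took 26.4% ± 4.49 and 34.8% ± 1.03, also without overlap on this scale, although in plain counts control 3 (23.4%) exceeded knockout 2 (22.6%). ATP5MC3 took 17.2% ± 4.71 and 16.2% ± 0.494 per kilobase.

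ATP5MJ, a small membrane protein of the enzyme, is the clearest case in complex V where control 3 departed from its group, and was named after its values were seen. It measured 80.7 and 93.6 CPM in control 1 and 2, 162 CPM in control 3 and 171, 157 and 169 CPM in the knockouts, so that control 3 lay inside the knockout range. On the log2 scale the knockouts were higher by 0.56 (standard error 0.26, edgeR adjusted p = 0.178), and by 0.90 without control 3.

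For all 6 mitochondrial subunits of these complexes control 3 was nearer to control 1 and 2 than to the knockouts, and for none was it outside the range of the other 5 libraries. This did not hold for every gene of mitochondrial DNA, since control 3 was nearer to the knockouts for 4 of the 7 complex I subunits. Among the 43 nuclear subunits tested it was nearer to the knockouts for 19 and to the other controls for 24, where 59.0% of all genes were nearer to the knockouts. The 19 included 10 of the 17 of complex V, 5 of the 10 of complex III and 2 of the 11 of complex IV. It was outside the range of the other 5 libraries for 18 of the 43, where 51.5% of all genes were. Without control 3, edgeR called 22 nuclear subunits higher and 7 lower, in a fit that called 65.6% of all genes, 32.4% as higher and 33.2% as lower. The median log2 fold change without control 3 was 1.31 for the mitochondrial and 0.23 for the nuclear subunits.

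**Figure D4:**
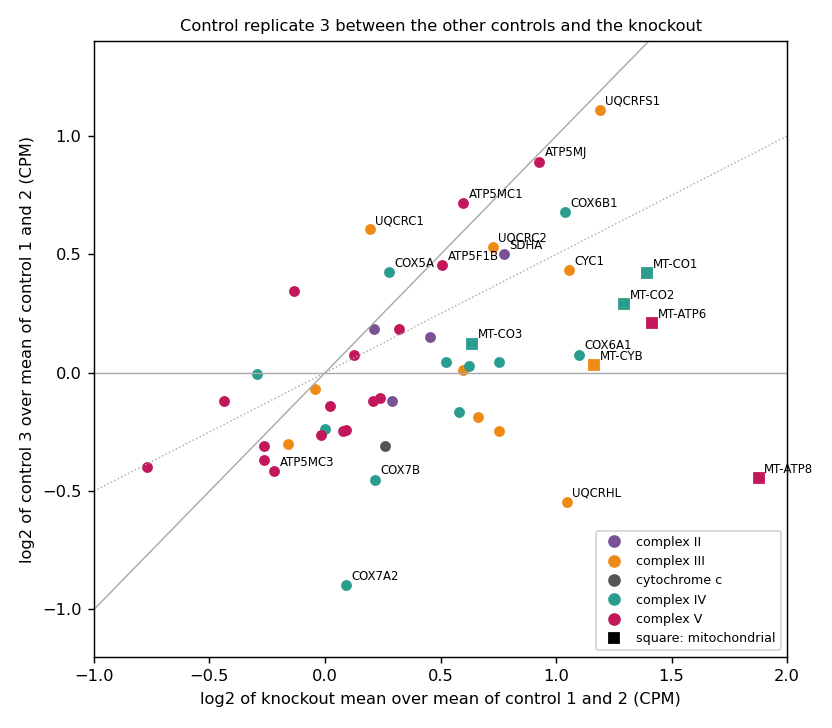
Each tested subunit gene by the log2 ratio of the knockout mean (x axis) and of control 3 (y axis) to the mean of control 1 and 2, in CPM, colored by complex, with squares for mitochondrially encoded genes. On the solid diagonal control 3 equals the knockout mean, above the dotted line it is nearer to the knockouts when the x value is positive, and all 6 squares lie below the dotted line.

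Per kilobase, each mitochondrial subunit stood above every nuclear one. In the controls the 6 mitochondrial subunits had 1567 (MT-ATP8) to 6889 (MT-CO3) CPM per kb of the canonical transcript. Among the tested nuclear genes COX7A2 had the highest level, at 714 CPM per kb, followed by ATP5F1B at 625 and UQCRH at 590.1 CPM per kb, and SDHA was at 10.8 CPM per kb. These levels depend on the transcript chosen, since UQCRB, for one, was divided by a canonical transcript of 8459 bases. Within complexes, the ratio of mitochondrial to nuclear counts was 1.75 ± 0.278 in controls and 2.54 ± 0.183 in knockouts for complex III. It was 9.09 ± 1.54 and 14.4 ± 0.545 for complex IV, and 0.849 ± 0.253 and 2.01 ± 0.119 for complex V (SD, n = 3 each). In each of the 3 complexes the lowest knockout ratio was above the highest control ratio.

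The genes that assemble and regulate these complexes were described from 7 lists of 85 genes, all of which were tested. Of them 6 were called higher and 5 lower, or 12.9%, against 16.6% of all genes, and the median log2 fold change was -0.05. For complex III, LYRM7, a chaperone of the Rieske protein, rose from 19.4 ± 2.57 to 29.8 ± 3.74 CPM (n = 3 each, log2 fold change 0.62, edgeR adjusted p = 0.0386). The cytochrome b assembly factors UQCC2 and UQCC5 fell by 0.57 and 0.58 on the log2 scale (edgeR adjusted p = 0.0288 and 0.0322). Of 27 genes for the assembly of complex IV, COX18, which inserts MT-CO2 into the membrane, and COX11, which delivers copper, rose by log2 fold changes of 0.77 and 0.48 (edgeR adjusted p = 0.0265 and 0.0279). Of 8 genes for the assembly and inhibition of the ATP synthase, ATPAF1 rose (log2 fold change 0.49, edgeR adjusted p = 0.0185) and FMC1 fell from 1.28 ± 0.0264 to 0.769 ± 0.0344 CPM (n = 3 each, edgeR adjusted p = 0.0340). Of 7 supercomplex and cytochrome c factors, HIGD1A rose (log2 fold change 0.60, edgeR adjusted p = 0.0265) and COX7A2L, which joins complexes III and IV, fell (log2 fold change -0.54, edgeR adjusted p = 0.0444).

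Among 22 genes for the replication, transcription, RNA handling and translation of mitochondrial DNA, SLIRP and FASTK passed the test. SLIRP, which stabilizes mitochondrial messenger RNAs together with LRPPRC, rose from 73.4 ± 19.7 to 125 ± 5.65 CPM (n = 3 each, log2 fold change 0.77, edgeR adjusted p = 0.0430). FASTK, a kinase-like protein with a mitochondrial form that binds RNA, fell from 104 ± 12.7 to 69.2 ± 3.20 CPM (n = 3 each, log2 fold change -0.58, edgeR adjusted p = 0.0221). Of the 9 regulators of mitochondrial biogenesis edgeR called 0, with 2 at an unadjusted p under 0.05 and 2 called by DESeq2. Of the 4 succinate dehydrogenase assembly factors it also called 0, with 1 at an unadjusted p under 0.05 and 1 called by DESeq2. Of the 11 calls over all lists, each was kept without control 3 and COX7A2L was the one also kept without another library, control 1.

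Promoter sequence was examined because nuclear respiratory genes are known to carry sites for NRF1 and for ETS factors such as GABPA, and because some of them moved together. RefSeq promoters of 300 bases (GRCh38.p14, 250 before the start) were matched for 37 of the 49 nuclear genes. The NRF1 letters, GCGCA and GCGC with 1 base of any kind between them, were found on either strand in 29.7% of the 37 and in 6.28% of 27305 promoters. The ETS letters CCGGAAG were found on either strand in 40.5% of the 37 and in 10.7% of all promoters, and the motifs overlapped in 0 of the 37. Of the 10 nuclear genes called higher, 6 were matched (UQCRHL, UQCRB, CYC1 and COX6C were not). Of these 6, 5 held the ETS letters and 0 the NRF1 letters. Of the 27 matched genes that were tested and not called higher, 10 held the ETS letters and 10 the NRF1 letters. By complex, the NRF1 letters were in 4 of 7 tested promoters of complex III and in 0 of 9 of complex IV. These are counts of letters, with no test and with no measurement of binding. The 110 bases that hold the ETS letters are shown for the 5 genes, 5′ to 3′ on the strand of the gene, with the letters or their reverse complement CTTCCGG in capitals. They lie in GRCh38.p14 at chr1:17054106-17054215 (minus strand) for SDHB, chr1:46303588-46303697 for UQCRH, chr5:132866532-132866641 for UQCRQ, chr12:120438003-120438112 for COX6A1 and chr11:63974510-63974619 for COX8A (plus strand).
SDHB: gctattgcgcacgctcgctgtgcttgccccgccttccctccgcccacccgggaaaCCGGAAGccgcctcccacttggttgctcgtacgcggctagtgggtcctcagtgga
UQCRH: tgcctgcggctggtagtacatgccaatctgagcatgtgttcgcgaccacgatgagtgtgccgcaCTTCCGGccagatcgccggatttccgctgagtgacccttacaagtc
UQCRQ: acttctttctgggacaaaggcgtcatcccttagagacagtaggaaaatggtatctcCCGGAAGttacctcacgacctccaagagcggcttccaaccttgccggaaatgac
COX6A1: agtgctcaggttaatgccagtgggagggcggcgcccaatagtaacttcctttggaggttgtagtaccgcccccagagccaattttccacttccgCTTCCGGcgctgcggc
COX8A: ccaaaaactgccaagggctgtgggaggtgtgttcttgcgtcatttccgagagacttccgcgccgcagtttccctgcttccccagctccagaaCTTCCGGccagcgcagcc
In UQCRH, UQCRQ, COX6A1 and COX8A the stretch ends at the base before the RefSeq start, and in SDHB 73 bases before it.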

How the data were processed

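RNA-seq data of HEK293 cells comprised 3 libraries from controls and 3 from the FAM60A knockout, grouped by sample title. According to the methods, poly(A)-selected dUTP strand-specific libraries were made, Trimmomatic filtered the reads, and Salmon estimated gene levels against hg38. The submitters' processing notes instead name STAR 2.7.10b and featureCounts 2.0.0 with hg38, and another label names hg19. The strand setting of the counting is not given in the sources used here. The table that the authors deposited holds unnormalized counts in whole numbers for 62754 Ensembl identifiers, and 60878 of these could be matched to symbols. Every sample column belonged to a sample of the series. Library totals were 88361827 to 93346824 counts.

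Counts were scaled by TMM, filtered with filterByExpr (minimum count 10, 20992 genes left) and tested with the two-sided quasi-likelihood F-test of edgeR 4.0.16 in R 4.3.3, with Benjamini-Hochberg adjustment over all genes tested and calls at an adjusted p of at most 0.05. Nothing in the labels says that replicates were separate cultures, so p-values measure the spread between these libraries, which may be technical. No pair of libraries agreed within sampling noise. The replicate numbers did not pair the samples, as same-numbered libraries deviated from their group means with correlations of 0.01, 0.03 and -0.04 across genes. For isoform shares, exact permutation tests (two-sided) were used, and shares at 0 counts were limited by 3 counts of the total.

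The subunit genes, pathway lists and markers were chosen with earlier results of these data known. Values in every library are given for the mitochondrially encoded genes, the SDH genes, cytochrome c genes, isoform pairs, gene copies, the 3 ATP5MC genes and every subunit called. From the pathway lists the called genes are named, at most 4 per list by p. Any further gene was picked out after its values had been seen. The alternatives were DESeq2 1.42.0, quantile-normalized values in limma-voom (limma 3.58.1), unscaled library sizes (no TMM), library sizes without mitochondrial genes, no filter, at least 10 counts in every library, the replicate number as a block, leaving out each library, and, chosen after seeing the data, adding pseudogene copies to their gene. The fit was tested on simulated data, drawn with the same dispersion (0.0854) for every gene and with no library that departs from its group as control 3 does. Overlaps, transcript lengths and the printed coding sequences came from the release of GENCODE v44 that is mapped back to hg19. Coordinates and promoters came from RefSeq GRCh38.p14. Tables and plots used matplotlib 3.10.9, pandas 2.3.3, scipy 1.17.1 and numpy 2.4.6 under Python 3.11.15. Protein sequences were not used here.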

Additional observations from a re-analysis of the deposited data

How the results depend on the processing

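Of 832 log2 fold changes of 60 genes (the tested subunits and the named pathway genes) over the alternatives, 640 kept their direction and their side of the threshold, 148 lost a call, 26 gained a call and 18 changed sign. With the replicate block, which rests on shared numbers alone, edgeR called 1 nuclear subunit in place of 11, 4 of the 6 mitochondrial subunits, and 0 genes of the pathway lists in place of 11 (27 of these at an unadjusted p under 0.05). Leaving out 1 library gave 1 to 29 nuclear calls (29 without control 3, 1 without knockout 1 and 1 without knockout 3), 1 to 6 mitochondrial calls and 0 to 65 pathway calls (65 without control 3, and 0 without control 2 or any knockout library, where 16 to 20 had an unadjusted p under 0.05). Among the 85 pathway genes DESeq2 called 21 and the unfiltered fit 7. Of all genes, DESeq2 called 26.6% and the edgeR fit without control 3 called 65.6%. Apart from MT-CO3 (-0.062 under quantile normalization), the signs that changed belonged to uncalled genes with fitted values near 0. With 1 library left out, the values ran from -0.25 to 0.040 for ATP5MC3, -0.042 to 0.25 for COX5A, -0.030 to 0.15 for COX5B, -0.034 to 0.19 for ATP5ME, -0.049 to 0.15 for ATP5PO, -0.19 to 0.015 for UQCR10, -0.072 to 0.043 for UQCR11, and -0.19 to 0.16 for UQCRC1, which was positive without control 3 and without knockout 3. Without TMM, COX5B was at -0.034, ATP5ME at -0.041, ATP5PO at -0.046 and ATP5F1A at -0.0082 (-0.024 under quantile normalization). Quantile normalization sets the gene with the most counts in every library, MT-CO1, to the same value, and it left 4 mitochondrial calls. The cause of the other changes was not tested. Without TMM the median of all genes shifted to -0.12, and the 6 mitochondrial subunits were called as higher there too. The difference in the summed share of mitochondrial subunits, 2.83 percentage points, became 3.27 with mitochondrial genes left out of the total. That of nuclear subunits, 0.153, became 0.217 with that total and 0.227 with TMM-scaled totals. The difference in the COX7A1 share, 0.00351 percentage points, ranged from -0.00265 (without control 2) to 0.00854 with 1 library left out, and was also negative without knockout 1.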
